A study of Mus musculus with 14 samples.

Results

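The genes described here are the translation factors and aminoacyl-tRNA synthetases of the mouse, measured across 7 tissues. A gene, here a UniGene cluster, was a member when its title in the deposited files began with "Eukaryotic translation" or contained "tRNA synthetase", and the X- and Y-linked Eif2s3 genes were left out. This gave 97 members of the 22221 genes with counts. Of these, 90 passed the filter on low counts, as did 14682 genes in all. The 7 members that did not pass were Ago4, Eif2ak1, Eif2ak2, Eif3g and the minor clusters of Eef1g, Eif4a1 and Eif5a. The members carried 91 distinct symbols, since 5 symbols had more than 1 cluster. A symbol alone means its cluster with the most counts, except for Iars2. There it means the cluster with 577 counts, and the other Iars2 cluster had 732. Most members do what their titles say, with exceptions. The 4 members titled as initiation factor 2C, an old name, are the Argonautes Ago1, Ago2, Ago3 and Ago4, which bind small RNAs, and 2 more carry a synthetase title but are other enzymes: Dtd1, which removes D-amino acids from tRNA, and Aarsd1, an alanyl-tRNA editing protein.

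The libraries come from male and female C57BL6 mice, 1 library for each sex and tissue, 14 in all. The tissues were pancreas, parotid gland, liver, bone marrow, stomach, hippocampus and spinal cord, and no treatment or genotype sets any group apart. Total RNA was reverse transcribed, the cDNA was cut with the enzyme DpnII, and the 20 bases at the DpnII site nearest the 3′ end of each transcript were sequenced and counted, as the labels describe. The 2 liver libraries are labelled as different lobes, right for the female and left for the male, although both library codes end alike, so lobe and sex cannot be told apart there.

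Translation begins when eIF2, loaded with GTP and the initiator tRNA, joins the small ribosomal subunit together with eIF1, eIF1A, eIF5 and the large eIF3 complex. The mRNA is brought in by the eIF4F complex, in which eIF4E holds the cap, eIF4G is the scaffold and the helicase eIF4A unwinds the leader. The 4E-binding proteins block eIF4E until the kinase mTORC1 phosphorylates them. The kinases Perk (Eif2ak3), Gcn2 (Eif2ak4), Pkr (Eif2ak2) and Hri (Eif2ak1) phosphorylate eIF2, which then inhibits its exchange factor eIF2B, lowers protein synthesis and raises translation of the transcription factor ATF4. During elongation eEF1A brings each aminoacyl-tRNA to the ribosome and the eEF1B complex recharges eEF1A with GTP. Each synthetase attaches 1 amino acid to its tRNAs, and separate enzymes serve the cytosol and the mitochondria. The exocrine pancreas and parotid gland are known for heavy secretory protein synthesis, and neurons are known to use the eEF1A isoform Eef1a2 in place of Eef1a1 as they mature.

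Each gene was measured by its tags. The tags below belong to the members on which the results turn, printed 5′ to 3′ as deposited. The lower-case letters are the DpnII site, and the capitals are the bases read beyond it, which tell 1 gene from another. They show that paralogs with very similar proteins, such as Eef1a1 and Eef1a2, were counted by different tags.
Eef1a1, chromosome 9: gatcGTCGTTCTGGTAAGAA
Eef1a2, chromosome 2: gatcGGCTACAACCCAGCCA
Eif5a2, chromosome 3: gatcTGAATATTATAATTGT
Eif4a1, chromosome 11: gatcATGAGGGAGTTCCGGT
Eif4a2, chromosome 16: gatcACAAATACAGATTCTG
Eif4ebp1, chromosome 8: gatcTGGCAATCCTAGCCCC
Eif4g3, chromosome 4: gatcATGGAGGATAAAGGTC
Eif2ak3, chromosome 6: gatcTGATTTGAGAGTTTTG
Eif3c, chromosome 7: gatcTGTTGAGAATTTAAAA
Wars, chromosome 12: gatcAAGCGATGCTAATGTT
Eprs, chromosome 1: gatcTTCTCAGATGCAATTT

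These are the most abundant tags of their genes. The Eef1a1 tag held 97% of its gene's counts, the Eef1a2 tag 99.2%, the Eif5a2 tag 98% and the Eif4ebp1 tag 99.9%, against 78.4% for Eprs. In 58 of the 97 members 1 tag held over 90% of the counts. Because a transcript gives 1 tag whatever its length, levels of different genes are not divided by length.

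Library totals ran from 2194028 to 3834568 counts, and the members together had 233159 counts, with a median of 780 per member over the 14 libraries. Levels are given as CPM, counts per 1000000 counts assigned to genes, or as scaled CPM, which is CPM divided by the library's TMM factor, which sets the bulk of genes level between libraries. The choice matters here because the 50 most abundant genes took 95.1% and 94.2% of the gene counts in male and female pancreas and 84.37% and 84.63% in male and female parotid gland, but between 28.21% and 30.78% in hippocampus and spinal cord. TMM factors ran from 0.1474 to 2.487. One count is worth 2.559 and 1.967 scaled CPM in male and female pancreas and about 0.52 in parotid gland. The marker lists of pancreas, parotid gland, liver, bone marrow and stomach were each highest in both libraries of that tissue. Neuron markers stood at 5575 and 5659 CPM in male and female hippocampus and 8894 and 9627 CPM in male and female spinal cord, and at or below 25.57 CPM elsewhere. Liver markers (Alb, Apoa1, Ttr, Serpinc1 and Fgg, summed) also reached 6904 and 3554 CPM in male and female hippocampus. Their part in the hippocampus values was not tested. Bone marrow markers also reached 7546 and 7235 CPM in male and female spinal cord, and their part in the spinal cord values was not tested. The 2 stomach libraries differed from each other more than any other pair: the summed stomach markers stood at 244834 CPM in the male library and 92593 CPM in the female one, and the correlation of log2(CPM + 1) between male and female libraries, over all tested genes, was 0.834 there and 0.929 to 0.980 in the other 6 tissues. Stomach values are therefore given per library, and counts of calls are also given without both stomach libraries where they differ. Fewer cells of a type and less RNA per cell cannot be told apart in these tissue samples.

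The members took the smallest part of the counts in the pancreas. Their summed level was 1353 and 1715 CPM in male and female pancreas and 3917 and 3759 CPM in male and female parotid gland, whereas it was 9630 and 9813 CPM in male and female bone marrow and between 6570 and 9209 CPM in the libraries of the other 4 tissues. On the scaled CPM the order turned over: the pancreas was highest with 9177 and 9329 in its male and female libraries, and the nervous tissues were lowest with 3496 to 3703 in the 4 libraries. The 2 sets of values answer different questions, the share of all gene transcripts and the level relative to the bulk of genes. Leaving the 50 most abundant genes out of the denominator gave the same top and bottom, with 28605 ± 1391 CPM in pancreas, 24758 ± 429.9 in parotid gland and 11474 ± 0.7721 in hippocampus (SD, n = 2 libraries each). The bottom of that order rests on Eef1a1: without it liver was lowest, at 7950 ± 472.4, below hippocampus at 9598 ± 11.27, while pancreas stayed highest at 17559 ± 373.5. The elongation factor Eef1a1 alone held 29.4% of all member counts.

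**Figure D1:**
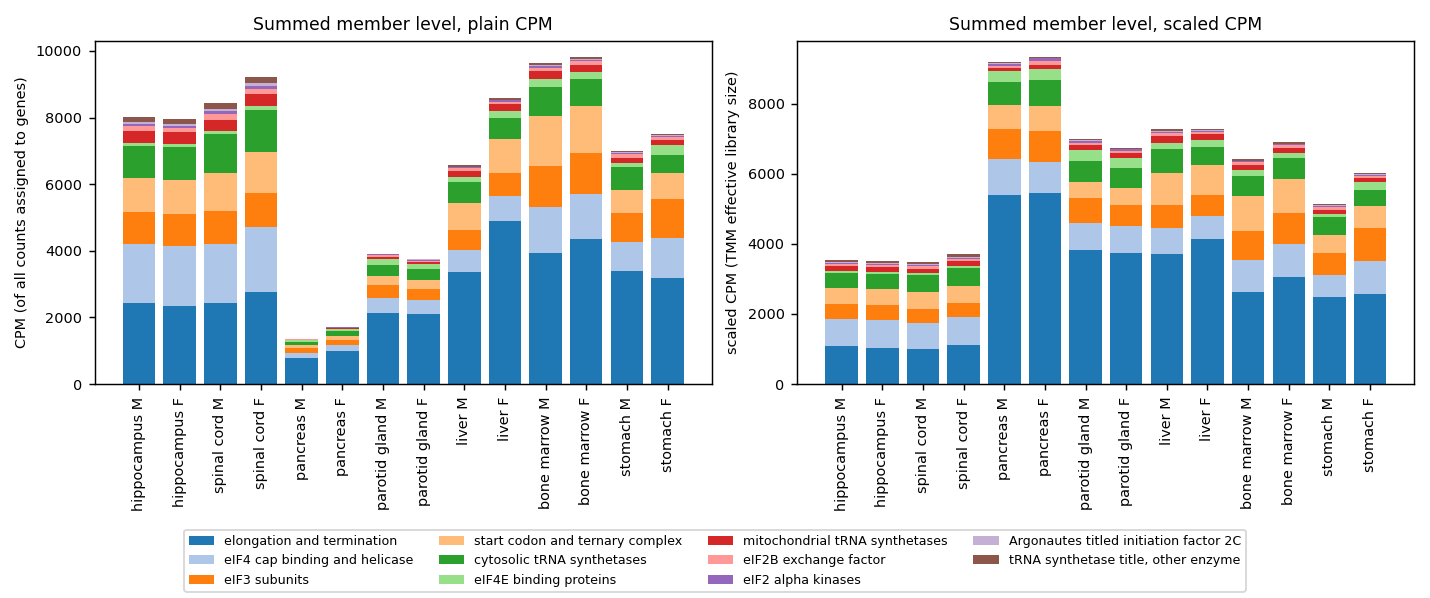
Summed level of the 97 members in each of the 14 libraries, stacked by role, as plain CPM in the left panel and as scaled CPM in the right panel, male before female in each tissue. Pancreas is lowest on the left, at 1353 and 1715 CPM in its male and female libraries, and highest on the right, at 9177 and 9329 scaled CPM.

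Each tissue was compared with the mean of the other 6 by edgeR's quasi-likelihood test over all 14682 genes, with tissue and sex in the model. A gene is called higher or lower when its Benjamini-Hochberg adjusted p is under 0.05 and its fold is at least 2. With 1 library for each sex and tissue, the p-values measure only the spread between these samples. In pancreas 14 members were higher and 1 was lower, where 6.33% and 3.24% of all genes were called in those directions. In parotid gland the counts were 11 and 1 (11.1% and 3.86% of all genes), in liver 15 and 5 (18.5% and 10.1%), in bone marrow 16 and 3 (19.6% and 14.3%), and in stomach 6 and 6 (17.9% and 3.93%). In hippocampus 8 were higher and 17 lower (28% and 12.9% of all genes), and in spinal cord 7 and 15 (27.3% and 8.67%). The parotid, liver and bone marrow counts of higher members thus lie near the share of all genes, while pancreas lies above it and stomach and both nervous tissues below it. Without the stomach libraries 5 members were lower in pancreas and 3 in parotid gland, and the other counts stayed within 1.5 times.

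A pair of joint comparisons was also made. The hippocampus and spinal cord libraries, set against the mean of the other 5 tissues, had 8 members higher and 20 lower (30.8% and 14.5% of all genes). Pancreas and parotid gland, set against the mean of the other 5, had 13 higher and 6 lower (7.85% and 8.19%). The 6 lower ones were Ago3, Dtd1, Eif4e3, Eif5a2, Pars2 and Sars2, each with 0 to 5 counts in either pancreas library. Of these calls, those of Ago3, Eif4e3 and Pars2 were lost without each of the 4 gland libraries in turn, those of Dtd1 and Sars2 without female pancreas and that of Eif5a2 without male liver. These directions depend on the scaling. The median of all genes in pancreas was -0.59 on the log2 scale by TMM and -3.26 by library totals, and in the nervous tissues it was 0.22 by TMM and 1.87 by library totals. The members' median moved with it: it stood 0.70 above the all-gene median in pancreas by TMM and 0.40 above it by library totals, while in the nervous tissues its distance was -0.71 by TMM and -0.63 by library totals. Of 172 calls of members in the 9 tissue comparisons, 53 took the opposite sign by library totals, and all 172 stayed on the same side of the all-gene median. "Higher" and "lower" below therefore mean relative to the bulk of genes, and the sign by library totals is given where it differs. Comparisons of 1 tissue against the others share libraries with each other, so their values are set side by side and not correlated.

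**Figure D2:**
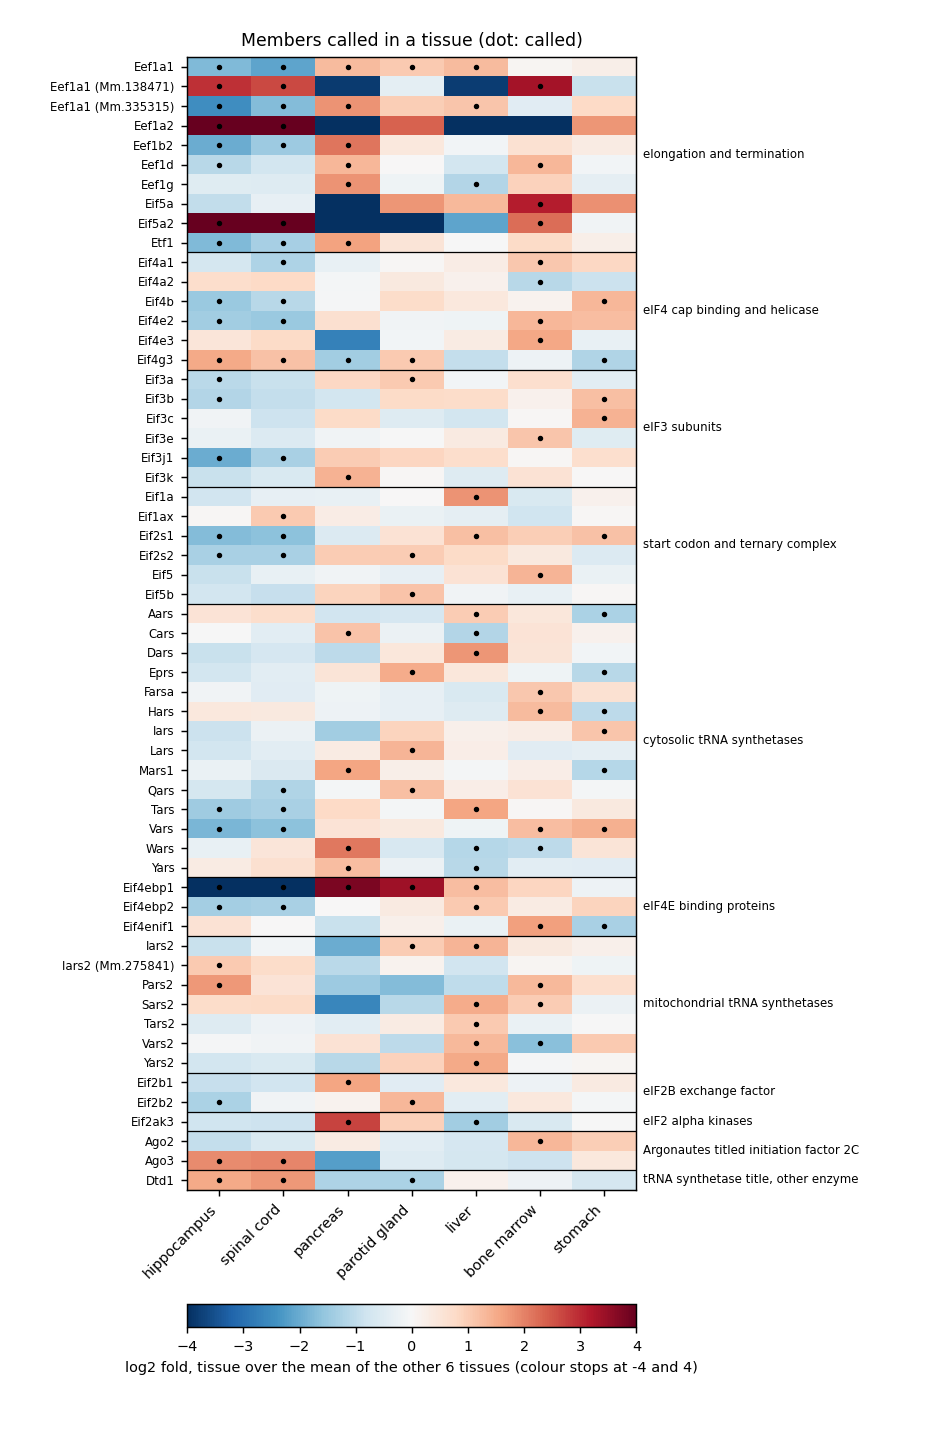
Heatmap of log2 fold changes of each tissue against the mean of the other 6, with rows for members called in at least 1 tissue, grouped by role, with the colour limited to ±4 and a dot on each call. Pancreas has 14 dots for higher members, 13 of which, all but Eif4ebp1, take the opposite sign by library totals, and the nervous tissues have most of the dots for lower members, 17 in hippocampus and 15 in spinal cord.

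Among the elongation factors the isoforms divided the tissues. Eef1a2 is the eEF1A isoform of neurons and muscle. It had 103 and 92.5 scaled CPM in male and female hippocampus and 104 and 128 in male and female spinal cord, against no count in either library of bone marrow, liver or pancreas. In parotid gland it had 4.12 and 7.86 scaled CPM in the male and female libraries, and in stomach 9.14 in the male library and 0 in the female one. The 4 nervous tissue libraries thus lay above all others. On plain CPM its mean was at least 401.8-fold higher in hippocampus than in bone marrow, and at least 517.4-fold higher in spinal cord, with a floor of 3 counts over both bone marrow libraries. Summed levels of 10 skeletal muscle markers were 323 and 256.1 CPM in male and female parotid gland, with 9 of 10 detected in each. They were 265.3 CPM in male stomach, with 9 of 10 detected, and 49.41 CPM in female stomach, with 6 of 10 detected. In spinal cord they reached 549.4 and 338 CPM in the male and female libraries, but in hippocampus, where Eef1a2 was about as high, only 48.65 and 69.93 CPM. Their part in the parotid and stomach values was not tested.

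Eef1a1, the isoform of most other cells, ran the other way. It had 577 and 567 scaled CPM in male and female hippocampus and 429 and 503 in male and female spinal cord, and between 1546 and 3668 in the 10 libraries of the other tissues, with no overlap. The difference was -2.34 ± 0.26 (SE) on the log2 scale for the nervous tissues against the other 5 (adjusted p = 4.3e-07, edgeR). By library totals it shrank to -0.62, below the 2-fold limit, and lay 2.48 under the all-gene median. The share of Eef1a2 in the sum of both isoforms needs no scaling. It was 14.04% and 15.19% in the hippocampus libraries, 19.55% and 20.25% in those of spinal cord, 0.1332% to 0.2558% in parotid gland, 0.4821% in male stomach, and 0 in bone marrow, liver and pancreas.

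Eif5a and Eif5a2 encode the 2 forms of the hypusine-containing factor that helps the ribosome through difficult sequences such as proline runs. Eif5a2 had 31.8 and 34.9 scaled CPM in male and female hippocampus and 82.1 and 85.8 in male and female spinal cord, against 0 in all 4 libraries of pancreas and parotid gland. Bone marrow had 6.11 and 4.63 in its male and female libraries, and liver and stomach stayed at or below 1.39. Spinal cord lay above hippocampus, and both above every other library. On plain CPM Eif5a2 was at least 135.8-fold higher in hippocampus and at least 371.4-fold higher in spinal cord than in pancreas, and at least 172.5-fold and 471.8-fold higher than in parotid gland. The main cluster titled Eif5a was higher in bone marrow, with 15.9 and 11.3 scaled CPM in the male and female libraries and 0 to 12.6 elsewhere. That cluster took most of its counts from a tag whose accession is that of Gps2, so its level may not be that of Eif5a.

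Subunits of the eEF1B complex, which recharges eEF1A, stood out in pancreas. Eef1b2, which encodes the GTP exchange subunit, had 724 and 673 scaled CPM in male and female pancreas, against 58.96 to 290.7 in the other 12 libraries (median 207.6), so the groups did not overlap. The difference was 2.15 ± 0.22 on the log2 scale (adjusted p = 1.3e-06, edgeR), and -0.89 by library totals, which still lay 2.36 above the all-gene median. Eef1g, a structural subunit of the same complex, had 867 and 763 scaled CPM in male and female pancreas, against 138.2 to 484.4 elsewhere (median 212.1). Its difference was 1.81 ± 0.24 (adjusted p = 3.2e-05), and -1.23 by library totals, 2.02 above the all-gene median. Eef1g was also lower in liver, at 139 and 138 scaled CPM in the male and female libraries (-1.18 ± 0.30, adjusted p = 0.005), a call lost without either liver library.

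Eef1d, the subunit that also exchanges GTP on eEF1A, had 310 and 234 scaled CPM in male and female pancreas and 248 and 302 in male and female bone marrow, against 63.02 to 140.3 in the other 10 libraries. Etf1, the release factor eRF1, had 51.2 and 43.3 scaled CPM in male and female pancreas, against 5.597 to 31.94 elsewhere (1.60 ± 0.36, adjusted p = 0.0064). The calls of Etf1 and of both Eef1a1 clusters in pancreas were lost without either pancreas library, and that of Eef1d without the male one. Together with Eef1a1 and its second cluster, that made 6 of the 12 tested elongation and termination members higher in pancreas and none lower, with a median of 1.31 beside -0.59 for all genes, and all 6 of opposite sign by library totals. Of all genes 6.33% were higher and 3.24% lower in pancreas. In the nervous tissues 3 of the 12 were higher and 5 lower (30.8% and 14.5% of all genes), with a median of -0.71 beside 0.22 for all genes. The 3 higher ones were Eef1a2, Eif5a2 and the smallest Eef1a1 cluster, which had at most 12 counts in any library. Eef1d was among the 5 there and took the opposite sign by library totals. Near-identical copies of Eef1a1 exist in the genome and the tags were not placed on loci here, so the extra Eef1a1 clusters are uncertain. The cluster titled Eef2 had few counts, between 0 and 10.2 scaled CPM in each library, although the protein is abundant in most cells.

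The cap-binding machinery showed the same kind of division. Eif4g3, a scaffold paralog of Eif4g1, had 127 and 104 scaled CPM in male and female hippocampus, 87.7 and 96.8 in male and female spinal cord and 86.5 and 86.5 in male and female parotid gland, against 13.77 to 47.9 in the other 8 libraries. It was higher in the nervous tissues (1.61 ± 0.20 on the log2 scale, adjusted p = 1.4e-06, edgeR) and in parotid gland (1.05 ± 0.25, adjusted p = 0.0061). The parotid call was lost by RLE size factors, by DESeq2, without either parotid library, without the female pancreas or male spinal cord library and without both stomach libraries. It was lower in pancreas, at 28.1 and 13.8 in the male and female libraries (-1.39 ± 0.37, adjusted p = 0.019), a call lost without either pancreas library or without the female spinal cord library. Within the sum of Eif4g1, Eif4g2 and Eif4g3 it held 22.49% to 27.79% in hippocampus and 2.318% to 4.231% in pancreas. Eif4g2, the relative also known as Dap5, which lacks the eIF4E-binding site, held between 66.62% and 90.4% in every library.

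The 2 helicases Eif4a1 and Eif4a2 changed places between tissues. Eif4a2 made up 76.73% and 77.17% of their sum in the hippocampus libraries and 82.64% and 83.55% in those of spinal cord. Its share was 22.54% to 34.3% in bone marrow, 55.22% to 68.97% in pancreas, 63.62% to 64.39% in parotid gland, 56.53% to 58.52% in liver and 21.23% to 51.24% in stomach. The nervous tissue libraries lay above all others, and the bone marrow libraries below all but male stomach. In bone marrow Eif4a1 was higher, with 134 and 158 scaled CPM in the male and female libraries (1.09 ± 0.26, adjusted p = 0.0023), although male stomach lay above both at 175.2. A second tag gave 112 and 60 of the 546 and 615 Eif4a1 counts in male and female bone marrow. That tag had 55 to 80 counts in the hippocampus and spinal cord libraries and 0 to 2 in those of the other tissues. The shares above include it. Eif4a2 was lower in bone marrow, with 69.7 and 46.1 in the male and female libraries (-1.11 ± 0.31, adjusted p = 0.0084). Both calls were lost without the female bone marrow library, and that of Eif4a2 also by library totals.

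Of the 3 cap-binding proteins, Eif4e is the canonical one and Eif4e2 (4EHP) a repressor that binds the cap without eIF4G. Eif4e made up 56.03% and 61.13% of the family's sum in the hippocampus libraries and 55.74% and 57.21% in those of spinal cord, against 15.15% and 21.57% in pancreas, 22% to 34.96% in parotid gland and liver, and 25.24% and 26.78% in bone marrow. Eif4e2 made up the larger part outside the nervous tissues, 76.47% and 84.85% in the pancreas libraries. Eif4e2 was lower in the nervous tissues, at 28.87 to 34.89 scaled CPM against 33.13 to 300.4 elsewhere, with an overlap in male stomach (-1.73 ± 0.39, adjusted p = 0.00099), and of opposite sign by library totals. Of the 9 tested members of the cap-binding and helicase group, 1 was higher and 4 lower in the nervous tissues (30.8% and 14.5% of all genes). The group's median there was -0.03 beside 0.22 for all genes.

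**Figure D3:**
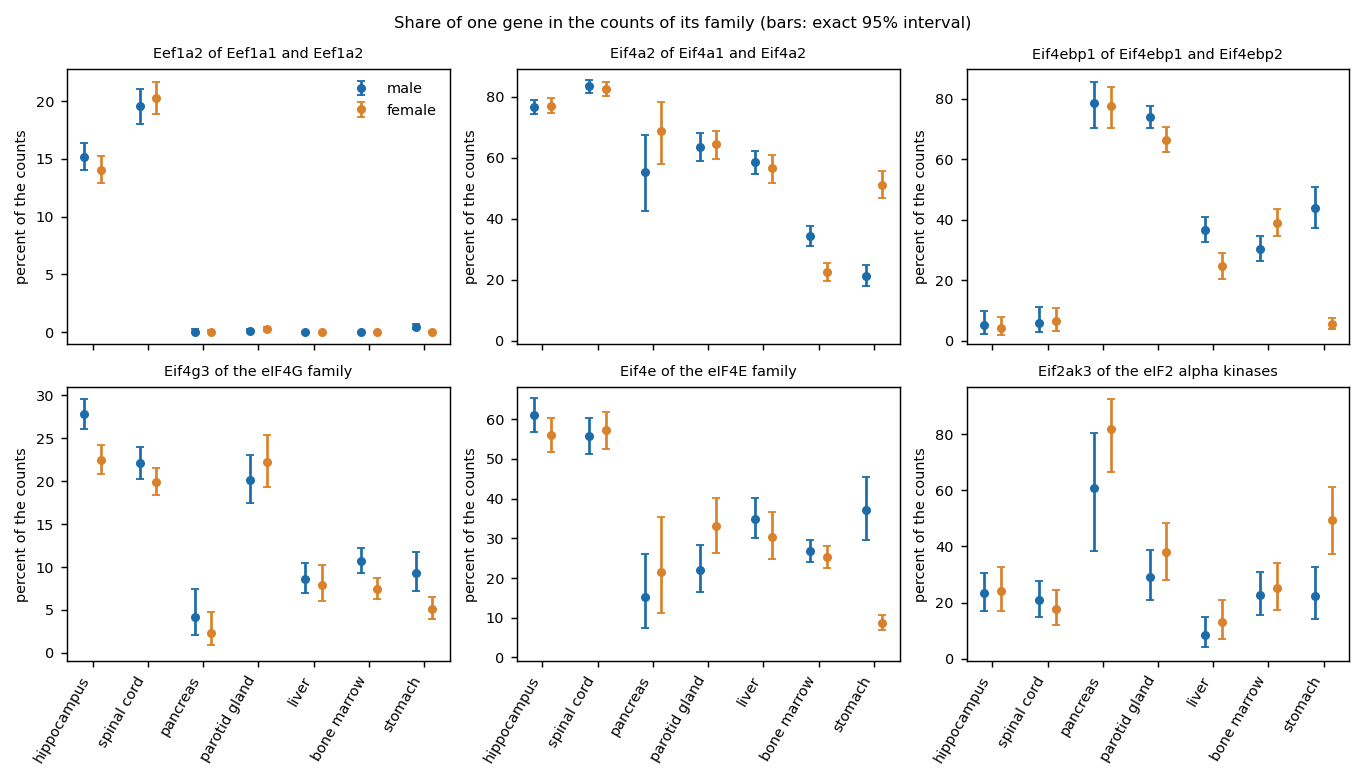
Share of 1 paralog in the sum of its family, in percent of counts with exact 95% binomial intervals, in each library, with male in blue and female in orange. Eef1a2 appears at 14.04% to 20.25% in hippocampus and spinal cord and near 0 elsewhere, Eif4a2 is highest in those 2 tissues, and Eif4ebp1 is highest in pancreas at 77.5% and 78.51%.

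The 4E-binding protein Eif4ebp1 had the clearest tissue pattern that did not end in zeros. It had 243 and 244 scaled CPM in male and female pancreas and 223 and 178 in male and female parotid gland, against 67.3 and 44.2 in male and female liver, 36.9 and 49.4 in male and female bone marrow, and 37.3 and 11.8 in male and female stomach. Male and female hippocampus had 1.4 and 1.49, and male and female spinal cord 1.79 and 2.36. The glands lay above every other library and the nervous tissues below. It was higher in pancreas by 3.75 ± 0.28 on the log2 scale, a 13.5-fold difference (adjusted p = 1.2e-08, edgeR). This was the only 1 of the 14 higher members in pancreas that kept its sign by library totals, at 0.73, which was no longer a call and lay 3.99 above the all-gene median. In parotid gland the difference was 3.40 ± 0.27 (adjusted p = 2.1e-08), and in the nervous tissues -5.44 ± 0.36 (adjusted p = 4.4e-10) and -3.74 by library totals.

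The paralog Eif4ebp2 was less uneven. It had 25.8 and 35.3 scaled CPM in male and female hippocampus and 28.2 and 34.4 in male and female spinal cord, against 47.6 to 204.7 in the other 10 libraries. That was -1.60 ± 0.28 on the log2 scale (adjusted p = 9.8e-05) and of opposite sign by library totals. Eif4ebp1 accordingly made up 77.5% and 78.51% of the pair in the pancreas libraries, 66.47% and 73.97% in parotid gland, 24.53% to 38.95% in liver and bone marrow, and 4.061% to 6.417% in the nervous tissues. In stomach the share was 43.95% in the male library and 5.466% in the female one. Eif4enif1, which carries eIF4E into the nucleus, was higher in bone marrow, at 33 and 19.3 scaled CPM in the male and female libraries against 2.559 to 16.5 elsewhere (1.64 ± 0.30, adjusted p = 0.0002).

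Genes that act on this switch were listed as well: 14 components and targets of mTORC1 and the eIF4E kinases, none of them members. In pancreas 3 were higher, Deptor, Larp1 and Mknk1, and 1 was lower, the eIF4E kinase Mknk2, beside 6.33% and 3.24% of all genes. Mknk1, an eIF4E kinase, had 76.76 to 141.6 scaled CPM in pancreas against 6.846 to 26.41 elsewhere (3.25 ± 0.28, adjusted p = 1e-07, edgeR), and it kept its sign by library totals. The mTOR inhibitor Deptor was also higher there, at 143.6 to 151 against 4.157 to 130.8 (2.45 ± 0.32, adjusted p = 2.2e-05), but of opposite sign by library totals, like Larp1. Deptor was also called higher in parotid gland and liver. In parotid gland 3 were higher, Deptor, Mknk2 and Pdcd4, and 1 was lower, Mlst8, beside 11.1% and 3.86% of all genes. Pdcd4, which inhibits eIF4A, reached 1170 to 1301 scaled CPM in parotid gland against 56.95 to 337.7 elsewhere (3.21 ± 0.22, adjusted p = 2.5e-09). In the nervous tissues Tsc1, part of a complex that inhibits mTORC1, was higher, and Deptor, Larp1, Mknk1, Mknk2 and Pdcd4 were lower. Of these 5, 3 (Larp1, Mknk1 and Pdcd4) had the opposite sign by library totals. The shares of all genes there were 30.8% higher and 14.5% lower.

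Among the eIF2 kinases only Eif2ak3 and Eif2ak4 passed the filter. Eif2ak3 encodes Perk, the kinase of the endoplasmic reticulum membrane. It had 35.8 and 62.9 scaled CPM in male and female pancreas and 16 and 18.9 in male and female parotid gland, against 3.35 to 12.53 in the other 10 libraries. Both glands lay above all other tissues, and pancreas above parotid gland. The difference was 2.69 ± 0.33 on the log2 scale for pancreas (adjusted p = 1.3e-05, edgeR) and 2.18 ± 0.25 for both glands against the other 5 tissues (adjusted p = 5e-06). By library totals these became -0.32 and -0.21, and the pancreas value stood 2.94 above the all-gene median. Its depth in pancreas was small, 14 of 23 kinase counts in the male library and 32 of 39 in the female one, that is 60.87% and 82.05% of the 4 kinases, against 8.403% and 12.87% in liver and 17.65% to 49.32% in the other 10 libraries. In liver Eif2ak3 was lower, at 3.35 and 5.48 scaled CPM in the male and female libraries (-1.39 ± 0.38, adjusted p = 0.0088), a call lost without either liver library. Eif2ak4 (Gcn2), the kinase that senses uncharged tRNA, was not called in any tissue and ranged from 12.5 to 37.1 scaled CPM, although its cluster also carries an accession of Srp14. Eif2ak2 and Eif2ak1 stayed at or below 2.32 scaled CPM in every library.

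ATF4 targets were examined as a list of 22 genes outside the members, 18 of them tested. In pancreas 10 were higher and none lower, with a median of 1.78 beside -0.59 for all genes. They were Asns, Chac1, Cth, Ddit4, Mthfd2, Nupr1, Pycr1, Shmt2, Slc3a2 and Slc7a5. By library totals 7 of the 10 had the opposite sign, and all 10 stayed above the all-gene median. Asns, asparagine synthetase, had 478.4 to 515.3 scaled CPM in pancreas and 269.9 to 286.9 in parotid gland, against 0.4212 to 14.72 in liver. Its difference in pancreas was 3.25 ± 0.37 (adjusted p = 4.2e-06) and in liver -3.75 ± 0.62 (adjusted p = 9e-05). Nupr1, a stress-induced nuclear protein, had 1144 to 1935 scaled CPM in pancreas and 139.4 to 217.9 in parotid gland, against 0.6691 to 1.264 in liver. Chac1, which degrades glutathione, had 51.14 to 69.08 in pancreas against 2.665 to 21.64 in the other 12 libraries. Atf4 itself had 147.5 to 163.7 scaled CPM in pancreas and was not called (0.85 ± 0.25, adjusted p = 0.037), since its fold was under 2. In parotid gland 5 of the 18 were higher and none lower, and in liver 4 were higher and 7 lower. In the nervous tissues 1, the serine synthesis enzyme Psat1, was higher and 9 lower, 2 of the 9 (Asns and Mthfd2) with the opposite sign by library totals. Of all genes, 6.33% were higher and 3.24% lower in pancreas, 11.1% and 3.86% in parotid gland, and 18.5% and 10.1% in liver. For the nervous tissues these shares were 30.8% and 14.5%.

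The substrate of these kinases and its exchange factor were also measured. Eif2s1, the phosphorylated alpha subunit, was lower in the nervous tissues at 1.983 to 3.731 scaled CPM, against 5.117 to 26.27 elsewhere (-2.03 ± 0.39 on the log2 scale, adjusted p = 0.0002, edgeR). It was called higher in liver, at 23.75 and 9.688 in the male and female libraries, and in stomach, at 26.27 and 7.658 in the male and female libraries, and both calls were lost without the male library of the tissue, without male pancreas or without male spinal cord. Eif2s2, the beta subunit, had 10.82 to 13.94 scaled CPM there, against 14.09 to 60.98 elsewhere (-1.56 ± 0.24, adjusted p = 2.3e-05), and the opposite sign by library totals. Other forward tags of the Eif2s2 cluster, which these levels leave out, had more counts in all, 5059 against 1090. Raw counts in the male and female libraries were 516 and 704 in hippocampus, 619 and 532 in spinal cord and 959 and 496 in bone marrow. They were 152 and 246 in pancreas, 322 and 141 in liver, 106 and 76 in parotid gland and 65 and 125 in stomach. One count weighs most in pancreas, 2.559 and 1.967 scaled CPM in its male and female libraries. The call rests on the tags counted, and the level over all tags of the cluster was not tested. Of the 5 eIF2B subunits, Eif2b1 was higher in pancreas at 25.6 and 31.5 scaled CPM in the male and female libraries, against 5.597 to 17.52 elsewhere (1.58 ± 0.36, adjusted p = 0.0073), and lower in the nervous tissues, both with the opposite sign by library totals. The Eif2b1 call in pancreas was lost without the female pancreas library, and that in the nervous tissues under 11 of the 22 alternatives. Eif2b2 was higher in parotid gland, at 11.3 and 11.5 in the male and female libraries against 1.679 to 8.239 elsewhere (1.34 ± 0.40, adjusted p = 0.028), and lower in hippocampus, calls lost under 6 and 7 of the 22 alternatives, among them leaving out either library of the tissue. Eif2b3, Eif2b4 and Eif2b5 were called in no tissue.

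Among the factors of start codon selection, Eif1a, Eif5, Eif1ax and Eif5b were each called higher in 1 tissue and lower in none. Eif1a, which opens the small subunit for scanning together with eIF1, had 48.5 and 45.9 scaled CPM in male and female liver, against 9.128 to 25.89 elsewhere (1.80 ± 0.28 on the log2 scale, adjusted p = 4.2e-05, edgeR). Eif5, the GTPase activator of eIF2, had 227 and 221 in male and female bone marrow, against 28.56 to 157.6 elsewhere (1.36 ± 0.34, adjusted p = 0.0033), a call lost without male bone marrow. Eif1, the most abundant member of this group, ranged from 259 to 692 scaled CPM and was called in no tissue. Eif1ax was higher in spinal cord, at 24 and 28.3 in the male and female libraries against 8.496 to 17.91 elsewhere (1.05 ± 0.26, adjusted p = 0.0033), a call lost with code 1 tags only and without the female spinal cord or male parotid library. Eif5b, which joins the ribosomal subunits, was higher in parotid gland, at 36.6 and 41.4 in the male and female libraries (1.15 ± 0.35, adjusted p = 0.028), lost under 9 of the 22 alternatives, with either parotid library left out among them. Male and female pancreas had 38.38 and 29.5, the male value within the parotid range. A minor tag of the Eif5b cluster carries an accession of Rev1.

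The 12 subunits of eIF3, of which 11 were tested, had at most 3 calls in any tissue. In pancreas only Eif3k was called higher, with 108 and 155 scaled CPM in the male and female libraries, against 32.28 to 83.13 elsewhere (1.39 ± 0.28 on the log2 scale, adjusted p = 0.0025, edgeR), of opposite sign by library totals and not called without the female pancreas library. In bone marrow only Eif3e was higher, with 120 and 97.3 in the male and female libraries, against 39.08 to 81.97 (1.10 ± 0.24, adjusted p = 0.00099). In liver none of the 11 was called in either direction. In the nervous tissues all 11 lay below the all-gene median, by TMM and by library totals, and 3 were called lower: Eif3a, Eif3b and Eif3j1. Eif3j1, a loosely bound subunit, had 5.617 to 10.21 scaled CPM there, against 14.62 to 53.11 elsewhere (-1.97 ± 0.33, adjusted p = 4.8e-05). Eif3a and Eif3b took the opposite sign by library totals, and Eif3b was not called without male stomach. The group's median in the nervous tissues was -0.83 beside 0.22 for all genes. Of all genes 6.33% were called higher in pancreas and 19.6% in bone marrow, and 14.5% were called lower in the nervous tissues.

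The cytosolic synthetases, 19 members that were all tested, had different members called in pancreas, parotid gland and liver. In pancreas 4 were higher and none lower: Wars, Mars1, Yars and Cars, for tryptophan, methionine, tyrosine and cysteine. Of all genes 6.33% were higher and 3.24% lower there. Wars had 99.8 and 104 scaled CPM in male and female pancreas, against 10.95 to 41.89 elsewhere (median 24.16), a difference of 2.10 ± 0.29 on the log2 scale (adjusted p = 4.6e-05, edgeR). Mars1 had 74.2 and 76.7 in male and female pancreas, against 10.66 to 38.39 elsewhere (1.58 ± 0.29, adjusted p = 0.0012). Yars had 48.6 and 53.1, against 11.04 to 40.45 (1.22 ± 0.31, adjusted p = 0.014). Cars had 66.5 and 92.5, against 19.07 to 71.36, with an overlap in female stomach (1.14 ± 0.33, adjusted p = 0.034). Pancreas thus lay above every other library for 3 of the 4, and all 4 took the opposite sign by library totals. Without the female pancreas library Mars1, Yars and Cars lost their calls, and without the male one Yars and Cars did. Cars also lost its call without female bone marrow, liver or parotid gland. The group's median was 0.39 in pancreas beside -0.59 for all genes, and 16 of 19 lay above the all-gene median under both scalings.

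Parotid gland and liver had other synthetases higher, 3 of the 19 in each, near the 11.1% and 18.5% of all genes called higher. In parotid gland these were Eprs, Qars and Lars, for glutamate and proline, glutamine and leucine. Eprs, which is fused from both enzymes, had 66.5 and 63.9 scaled CPM in male and female parotid gland, against 10.66 to 43.27 elsewhere (1.47 ± 0.25, adjusted p = 0.0003). Qars had 64.4 and 60.3 in male and female parotid gland, against 13.75 to 46.6 (1.21 ± 0.28, adjusted p = 0.0054). Lars had 24.7 and 21 in male and female parotid gland, against 5.597 to 12.79 (1.36 ± 0.29, adjusted p = 0.0025). None of the 3 overlapped with another tissue. The calls of Qars and Lars were lost without either parotid library, and all 3 by library totals, at 0.50, 0.22 and 0.38 for Eprs, Qars and Lars.

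In liver Dars, Tars and Aars were higher, for aspartate, threonine and alanine. Dars had 59.6 and 47.2 scaled CPM in male and female liver, against 7.676 to 27.3 elsewhere (1.76 ± 0.25, adjusted p = 1.4e-05). Tars had 92.3 and 74.1 in male and female liver, against 12.49 to 53.73 (1.57 ± 0.24, adjusted p = 4e-05). The call of Aars was lost under 14 of the 22 alternatives, either liver library left out among them. Liver also had Cars, Yars and Wars lower, 3 of the 4 that were higher in pancreas. The share of all genes lower in liver was 10.1%. Yars had 11 and 14.7 scaled CPM in male and female liver (-1.10 ± 0.31, adjusted p = 0.011), a call lost without either liver library. Wars had 18.7 and 11 in male and female liver (-1.14 ± 0.33, adjusted p = 0.013), lost without the female liver library. These comparisons share libraries, and the high pancreas values enter the mean that liver is set against.

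Bone marrow had Hars, Farsa and Vars higher and Wars lower, and all of these but Hars lost the call without either bone marrow library. There 19.6% of all genes were higher and 14.3% lower. Hars, for histidine, had 46.46 and 55.1 scaled CPM in male and female bone marrow, against 8.758 to 34.31 elsewhere (1.28 ± 0.26, adjusted p = 0.00066). In the nervous tissues none was higher and Qars, Tars and Vars were lower, Qars and Tars with the opposite sign by library totals. Of all genes 30.8% were higher and 14.5% lower in those tissues. The call of Qars was lost without male stomach and that of Vars without male pancreas. Kars, for lysine, Rars, for arginine, and Nars, for asparagine, were called in no tissue. Their scaled CPM ran from 27.7 to 84.6, from 9.65 to 25.8 and from 20.9 to 52.8.

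**Figure D4:**
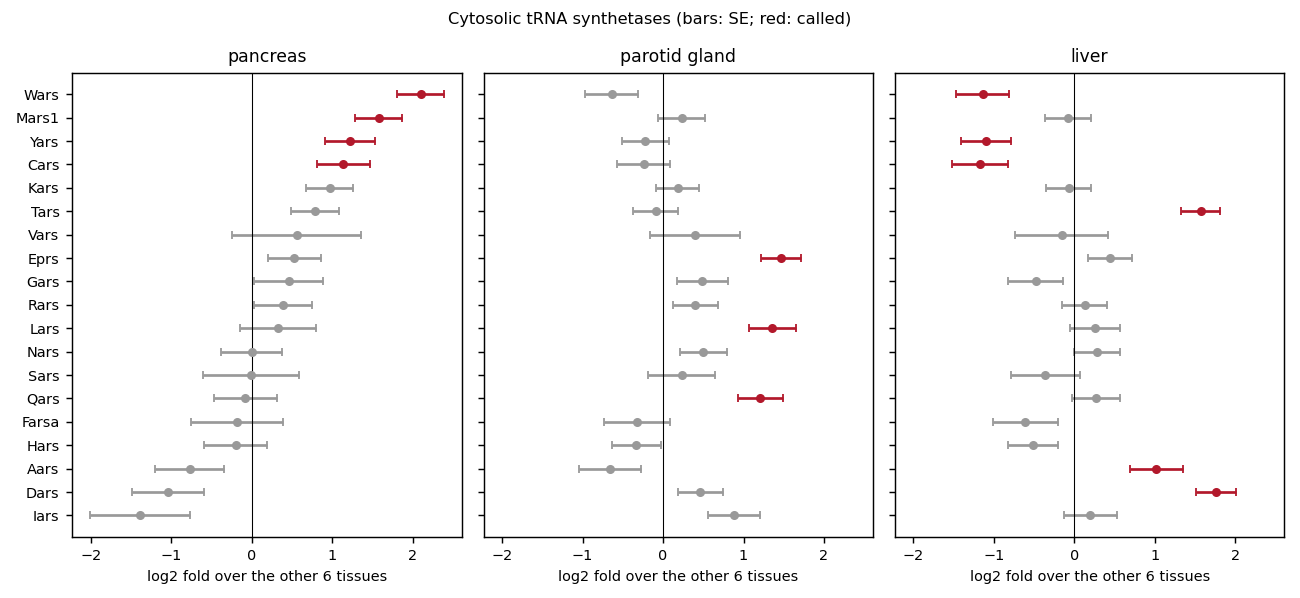
Log2 fold change ± SE of the 19 cytosolic synthetases in pancreas, parotid gland and liver, each against the mean of the other 6 tissues, with calls in red. Pancreas has Wars, Mars1, Yars and Cars higher (opposite sign by library totals), parotid gland has Eprs, Qars and Lars, and liver has Dars, Tars and Aars higher and Cars, Yars and Wars lower.

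Some synthetase promoters carry a sequence known from ATF4 targets, the C/EBP-ATF response element. Its core was searched as TGATGNAA on both strands of RefSeq promoter windows (GRCm38.p6, 250 bases before to 50 after the start), the only motif searched. It occurred in 3.97% of 32851 windows of all genes. Of the members, 69 had a window and 5 of these held a match (7.25%), all 5 among the 12 windows of cytosolic synthetases (41.7%). A match of each window is printed below in a 30-base piece, with the match in capitals. The Aars window holds 2 matches, of which the one farther along the window is shown. Of the printed ones, 1 reads on the window's own strand and 4 as the reverse complement.
Yars, chr4:129189895-129189924, + strand: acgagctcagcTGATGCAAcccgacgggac
Aars, chr8:111033840-111033869, + strand: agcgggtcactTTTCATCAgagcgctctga
Gars, chr6:55037960-55037989, + strand: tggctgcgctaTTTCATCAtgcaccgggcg
Iars, chr13:49682126-49682155, + strand: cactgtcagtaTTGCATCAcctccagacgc
Tars, chr15:11399655-11399684, − strand: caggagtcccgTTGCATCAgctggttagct

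Of these 5 genes, Yars was higher in pancreas and Tars and Aars in liver. Gars, for glycine, was called in no tissue, and Iars, for isoleucine, in stomach alone, a call lost without male stomach. Mars1 had a window without a match, and no window of Cars or Wars was in the table. A match describes letters in this window and not a bound site.

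The mitochondrial synthetases, 16 members that were all tested, were called higher most often in liver. There 6 were higher and none lower (18.5% and 10.1% of all genes), with a median of 0.81 beside -0.16 for all genes, and the median was also 0.81 by library totals. They included Yars2, Sars2, Iars2, Vars2 and Tars2. The calls of Vars2 and Tars2 were lost under 7 and 5 of the 22 alternatives, that of Vars2 without either liver library and that of Tars2 without the female one. Yars2, for tyrosine, had 19.7 and 12.6 scaled CPM in male and female liver, against 1.967 to 12.19 elsewhere (1.50 ± 0.37 on the log2 scale, adjusted p = 0.0036, edgeR). Sars2, for serine, had 15.1 and 11.4 in male and female liver, against 0 to 10.56 (1.47 ± 0.37, adjusted p = 0.0043). Iars2 had 34.5 and 16 in male and female liver, against 2.559 to 20.61 (1.36 ± 0.31, adjusted p = 0.0022), with an overlap. The other Iars2 cluster, the larger one, had 25 and 18 counts in male and female liver and was not called there. Without the male liver library Yars2, Sars2 and Iars2 were not called. Sars2 was also called higher in bone marrow. The group's summed level was highest in liver only on scaled CPM, at 180.2 ± 29.05 against 154.5 ± 2.817 in hippocampus (SD). On plain CPM it was 184.7 in liver, against 348.6 in hippocampus, 331.7 in spinal cord and 221.8 in bone marrow. Without the 50 most abundant genes it was 379.3 in liver, against 501.5 in hippocampus and 298.6 in pancreas. Of the mitochondrial factors that are not members, 3 of 7 tested were higher in liver, where 18.5% of all genes were, and 4 were not called. The 3 were Tufm, the mitochondrial elongation factor Tu, Gfm1 and Gfm2. Tufm had 69.08 to 76.61 scaled CPM in liver, against 14.93 to 57.88 elsewhere (1.50 ± 0.26, adjusted p = 0.00015). In pancreas none of the 16 synthetases was called, and their median was -0.46 beside -0.59 for all genes. There their levels lay between 0 and 19.7 scaled CPM, 10 counts or fewer per library, so smaller differences were not detectable at this depth.

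In the nervous tissues 2 mitochondrial members were higher. Pars2, for proline, had 14.4 and 14.6 scaled CPM in male and female hippocampus and 7.54 and 6.87 in male and female spinal cord, against 1.572 to 13.92 elsewhere (1.36 ± 0.36, adjusted p = 0.0034). It overlapped with bone marrow, where it was also called, and with female stomach. The other, larger Iars2 cluster had 18.66 to 25.56 scaled CPM in the 4 nervous tissue libraries, against 5.901 to 16.48 (1.07 ± 0.23, adjusted p = 0.00071). Vars2 was lower in bone marrow, at 1.71 and 1.8 in the male and female libraries against 1.967 to 15.23 (-1.67 ± 0.56, adjusted p = 0.024), a call lost without either bone marrow library.

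Of the members named by title but of other function, Ago3 and Dtd1 were higher in the nervous tissues. Ago3, an Argonaute, had 24.63 to 27.3 scaled CPM in the 4 nervous tissue libraries, against 1.967 to 17.06 elsewhere (2.30 ± 0.30 on the log2 scale, adjusted p = 3e-06, edgeR). Dtd1 had 40.2 and 41.4 in male and female hippocampus and 42 and 51.1 in male and female spinal cord, against 3.934 to 21.9 elsewhere (1.94 ± 0.24, adjusted p = 1.2e-06). Neither overlapped, and both kept their sign by library totals. Ago2, the Argonaute with slicer activity, was higher in bone marrow, at 11.7 and 8.75 in the male and female libraries against 2.052 to 8.377 elsewhere (1.33 ± 0.36, adjusted p = 0.0066), a call lost without male bone marrow. Other forward Ago2 tags, which this level leaves out, had 50 and 34 counts in male and female bone marrow and 57 to 66 in the 4 nervous tissue libraries.

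Over the 4 hippocampus and spinal cord libraries, 7 tested members lay above every library of the other 5 tissues and 19 lay below every one, where 17.5% and 4.17% of all genes did. In pancreas 14 lay above and 8 below every other library, where 3.43% and 8.2% of all genes did. These counts use scaled CPM.

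Sex was compared as male against female over the 7 tissues, at an adjusted p under 0.05 with no minimum fold. No member was called by edgeR, where 0.0477% of all genes were higher in males and 0.0136% lower. At an unadjusted p under 0.05 there was 1 member by edgeR, 1.11% of the members beside 3.32% of all genes. No member was called by DESeq2 or limma voom. The members' median difference was 0.07 on the log2 scale, beside -0.01 for all genes.

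The stomach pair was the exception to this evenness. When the male minus female difference in 1 tissue was tested against that in the other 6, a test added after seeing the data, 35 of the 90 members passed in stomach, 20 with the male library higher and 15 lower, where 22.3% of all genes passed. In each of the other 6 tissues no member passed, and at most 0.00681% of all genes did. Eif3c had 76.5 CPM in male stomach and 678 CPM in female stomach, and Eif4e2 had 45.3 and 374 CPM. In the other direction Eif3b had 189 CPM in male stomach and 31.2 CPM in female stomach, Eif4b 121 and 25.1 CPM, and Vars 55.1 and 4.33 CPM. The median absolute difference between the 2 libraries was 0.84 on the log2 scale over the members in stomach and 0.75 over all genes, and 0.15 to 0.47 over the members in the other tissues. Summed pancreatic acinar markers stood at 2247 CPM in the male library and 3599 CPM in the female one, beside the stomach markers given above, and the part of either in the members' differences was not tested. With 1 library of each sex, sex and library cannot be told apart.

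These 2 libraries decide the stomach calls. Eif3b, Eif4b and Vars, called higher in stomach, rest on the male library, and Eif3c on the female one. Without the male library Eif3b stood at -0.35 and Eif4b at -0.11 on the log2 scale, and without the female library Eif3c stood at -0.89. Eif4g3 was low in both, at 23.6 and 21.9 scaled CPM in the male and female libraries (-1.20 ± 0.30, adjusted p = 0.0059), and Eprs and Mars1 were lower too, calls that were lost without the male library. By library totals all 3 calls were lost.

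**Figure D5:**
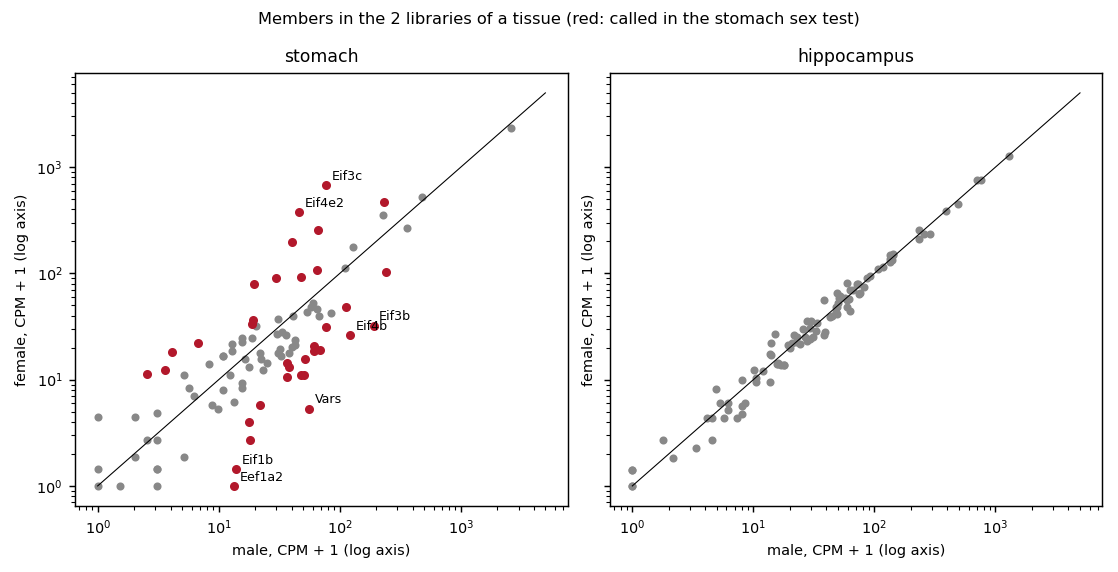
Levels of the members as CPM + 1 on log axes, male library against female library, in stomach and in hippocampus, with members that passed the stomach sex test in red. In stomach 35 of 90 members lie off the diagonal by that test, among them Eif3c at 76.5 and 678 CPM, and in hippocampus none do.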

How the data were processed

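The deposited files list, for each of the 14 libraries, every distinct 20-base tag with its raw count, a UniGene cluster and title, and a class code. Per the labels' protocols, cDNA was cut with DpnII and tags were captured with MmeI; no aligner, genome build or UniGene build is given in these sources. The counts are the authors' own, with no normalization. The legend of the class codes is not given either, and codes 1 to 4 were read as sense-strand transcript tags. Counts of codes 1 to 4 were summed per cluster, mitochondrial genes included, and CPM is counts per 1000000 of these. Between 60.81% and 92.08% of a library's counts fell to genes in this way, and the rest stayed out of library sizes and tests.

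Symbols came from the accession for 62 members and from the title for 35, matched to RefSeq. Genes were filtered with filterByExpr (minimum count 10), scaled by TMM and fitted with edgeR 4.0.16 (glmQLFit, glmQLFTest; R 4.3.3) with tissue and sex as terms over all 14 libraries, which leaves 6 residual degrees of freedom. No independent replicate of a sex and tissue exists, so the spread comes from the male and female libraries of each tissue after the common sex effect. P-values were adjusted over all 14682 genes. A tissue call needs at least a 2-fold difference and an adjusted p under 0.05. Exact binomial intervals and the floor of 3 counts cover counting error only, and fitted folds of genes at 0 in a whole tissue were replaced by bounds against that floor. The fit was tested on simulated data. Alternatives were library totals, RLE size factors, DESeq2 1.42.0, limma voom (limma 3.58.1), no filter, code 1 tags only, no sex term and leaving out each library. The fits without both stomach libraries and the test of sex by tissue were added after seeing the data. The members, the pathway lists and the tests were chosen with earlier results of these data known. The Argonautes and the 2 other enzymes were set apart as classes after the files were read.

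Members named with values are, by rule, up to 4 per direction and comparison by adjusted p, the 6 of highest mean CPM, the paralog families, and the most and least uneven member of each role; others are named within their role. Gene names of the pathway lists Mtif3 and Mrrf were not matched, and Slc7a11 and Aldh18a1 were set aside. The values of 1 member are not reported here, and it is left out of the heatmap.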

Additional observations from a re-analysis of the deposited data

Results flagged for a closer look

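Some deposited tags of the members lie outside the class codes that were summed. Tags of codes 11 to 16, taken as the reverse strand, held 16681 counts over 94 members, other forward tags held 8989 counts over 65 members and tags of codes 21 to 26 held 1698 counts over 70 members. These are 7.15%, 3.86% and 0.728% of the member counts used. In 5 members such tags outnumber the counts that were used: the other forward tags of Eif2s2 (5059), Lars2 (1105) and Ago2 (396), and the reverse tags of the smallest Eef1a1 cluster (2045) and the minor Eef1g cluster (297). The levels of Eif2s2, Lars2 and Ago2 above count only the tags of codes 1 to 4.

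The male minus female difference in stomach departed from that in the other 6 tissues for 35 members, by edgeR's quasi-likelihood test, a test added after seeing the data. The departures named here are log2 differences, positive where the male stomach library is relatively higher. They were -3.31 for Eif3c, -3.36 for Eif4e2, -2.14 for Ago3, -2.60 for Pars2, -1.91 for Eif4ebp2, -1.10 for Eif4g2, -1.02 for Eif4a2 and -1.19 for Eif2b4. On the other side they were 2.42 for Eif3b, 2.27 for Eif4b, 3.19 for Vars, 2.26 for Sars, 1.89 for Eif3j1, 1.60 for the second Eef1a1 cluster, 1.56 for Eif4ebp1, 1.36 for Qars, 1.23 for Eif3d, 2.76 for Eif5a, 1.04 for Eif4a1, 1.30 for Eif1a and 1.91 for Vars2. Eef1a2 (8.02) and Eif1b (5.02) had 0 and 0.433 CPM in the female stomach library, against 12.5 and 13 CPM in the male one, so their fitted values depend on the prior count. With 1 library for each sex, library and sex cannot be told apart.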

How the results depend on the processing

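No paired analysis was possible because the replicate numbers only name the female and male library of a tissue, and sex is already a term of the model. Scaling mattered most. On library totals the members called higher and lower were 0 and 82 in pancreas, 1 and 26 in parotid gland, 1 and 84 in both glands, 43 and 0 in bone marrow, 18 and 0 in stomach, 42 and 2 in hippocampus, 53 and 1 in spinal cord, and 57 and 1 in both nervous tissues. Liver stayed within 1.5 times. By library totals the log2 median of all genes was -3.26 in pancreas, -1.03 in parotid gland and -2.64 in both glands. It was 0.37 in bone marrow, 0.53 in stomach, 1.45 in hippocampus, 1.69 in spinal cord and 1.87 in both nervous tissues. The bulk of genes thus moved the same way, and these counts alone do not set the members apart. The report gives the number of member calls that turned sign by library totals. Among those followed one by one, the up to 4 of lowest adjusted p in each direction and comparison, they were, on the log2 scale, Eef1a1 in both glands (-1.0), Eef1b2 in pancreas (-0.89), both glands (-0.87) and spinal cord (0.06), Eef1g in pancreas (-1.23), Eif2ak3 in pancreas (-0.32) and both glands (-0.21), and Tars in spinal cord (0.19). In stomach, leaving out the male or the female library gave -0.35 or 2.06 for Eif3b, -0.11 or 2.16 for Eif4b, and 2.42 or -0.89 for Eif3c. Of the other alternatives for named members, 1336 kept direction and call and 75 lost the call. Counts outside 1.5 times were 8 higher in liver by DESeq2, 8 lower in liver, 5 lower in bone marrow and 8 lower in pancreas by limma voom, and 5 lower in pancreas and 3 in parotid gland without both stomach libraries. Parotid gland had 6 higher by RLE and 5 by DESeq2, and 2 lower by DESeq2, limma voom or no filter. Stomach had 3 higher by DESeq2, 1 by limma voom and 10 with no filter. The cause was not tested.

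Leaving out each library in turn, with a lone remaining library assumed to vary like the others, the counts of higher and lower members ran from 8 to 18 and 0 to 4 (bone marrow), 6 to 9 and 7 to 17 (hippocampus), 5 to 16 and 0 to 6 in liver, 6 to 17 and 0 to 3 in pancreas, 2 to 16 and 0 to 3 in parotid gland, 4 to 8 and 3 to 18 in spinal cord, 2 to 15 and 3 to 14 in stomach, 11 to 14 and 1 to 7 in both glands and 8 to 12 and 18 to 23 in both nervous tissues. Sex stayed at 0. In pancreas, parotid gland and liver their own libraries set the low ends: higher members fell to 6 and 8 in pancreas without its female and male library, 2 in parotid gland without either and 5 in liver without the male one. Higher members in stomach were 15 without its female library, 2 without male bone marrow and 3 without male parotid gland. Parotid gland had 7 higher without either pancreas library or male spinal cord, and both glands had 1 lower without female pancreas.

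The summed level of the members, as CPM without the 50 most abundant genes in the denominator, was 20661 for bone marrow, 11474 for hippocampus, 15326 for liver, 28605 in pancreas, 24758 in parotid gland, 12458 in spinal cord and 16918 in stomach. With code 1 tags only it was 9014 CPM in bone marrow, 7357 in hippocampus, 3600 in parotid gland, 8012 in spinal cord and 6651 in stomach. Depth limits pancreas most, where 3587 and 4743 member counts were found in the male and female libraries.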

Other observations

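Poly(A)-binding proteins, which are not members, were higher in parotid gland and bone marrow and lower in the nervous tissues. Pabpc1, the main cytoplasmic one, had 1220 to 1305 scaled CPM in parotid gland, against 48.79 to 869.4 in the other 12 libraries (2.95 ± 0.24 on the log2 scale, adjusted p = 3.9e-08, edgeR). In hippocampus and spinal cord it had 48.79 to 60.74, against 138.6 to 1305 in the other 10 libraries (-2.73 ± 0.27, adjusted p = 8.7e-08), and Pabpc4 was lower there by a like amount (-2.72 ± 0.31). Gspt2, a paralog of the release factor eRF3, was higher in the nervous tissues at 4.124 to 5.95, against 0 to 1.142 elsewhere (4.20 ± 0.59, adjusted p = 9.3e-06). In liver Eefsec, the elongation factor for selenocysteine, was higher at 19.8 to 20.41, against 1.392 to 6.951 elsewhere (2.51 ± 0.36, adjusted p = 2.1e-05). These 14 other translation factors had 3 higher and none lower in parotid gland (11.1% and 3.86% of all genes). In the nervous tissues they had 1 higher and 2 lower (30.8% and 14.5% of all genes). Their medians in parotid gland and the nervous tissues were 0.45 and -0.47, beside -0.02 and 0.22 for all genes. In bone marrow 3 were higher as well, Eef2k, Pabpc1 and Pabpc4, where 19.6% of all genes were. Pabpc4 was also higher in pancreas, where 6.33% of all genes were, with the opposite sign by library totals.

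Secondary tags of Eif3k and Eif4a1 appeared in some libraries only. They are shown because they lie in the same genes as the main tags. The main and second tags of Eif3k on chromosome 7 and the second tag of Eif4a1 on chromosome 11 read as follows, with the enzyme site in lower case and the bases beyond it in capitals.
Eif3k main: gatcTTGTACCTCGGGGACC
Eif3k second: gatcGACTTTGACAGTGTGT
Eif4a1 second: gatcTATGACATATTCCAGA

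The second tag of Eif3k held 17.3% of its gene's counts, with 60 to 84 in each library of bone marrow, hippocampus and spinal cord and 0 or 1 in the other 8. The second tag of Eif4a1 held 12%, with 55 to 112 in those 6 libraries and 0 to 2 in the other 8. The second tag of Eif4b showed the same split, with 7 to 20 counts against 0. So did the main summed tag of the smallest Eef1a1 cluster, with 7 to 12 against 0 and 89.1% of that cluster's counts. It gave most of the counts behind that cluster's higher calls in bone marrow, hippocampus and spinal cord. The cause was not tested.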
